A study of Mus musculus with 21 samples.

Results

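Claudins, connexins, occludin and the ZO scaffold proteins build the tight and gap junctions of epithelia, and their transcripts were followed here in mouse liver and liver tumours. The set holds every gene on the array whose name is Cldn, Gja, Gjb, Gjc, Gjd or Gje with a number, together with Ocln and the ZO genes. This gave 49 of 30222 genes, namely 25 claudins (14 of the classic and 11 of the other subgroup), 20 connexins, and 4 genes of occludin and the ZO proteins. Each gene was read through 1 probe, the one with the highest mean signal over all arrays.

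RNA of each tissue was hybridised to a one-colour array, 21 arrays in all, and all mice were of the C57BL/6J background. Knockout (KO) tumours came from untreated mice labelled Trp53 ko (6 tumours of 5 mice) and share the label HCC/CCC, for hepatocellular with cholangiocellular carcinoma, with no statement per tumour. KO livers came from 4 untreated Trp53 ko mice. DEN tumours, labelled HCC, were 7 tumours of 5 Trp53-intact mice injected at day 15 with the liver carcinogen DEN (N-nitrosodiethylamine, at 10 µg for each g of body weight), and wild-type (WT) livers came from 4 untreated mice with intact Trp53. Which cells and exons the Trp53 deletion covers, and sex and age, were not given in the sources used. Levels below are log2 processed intensities with the 75th percentile of the array set to 0, and tumours of 1 mouse were averaged before any comparison. The level of 1 probe was not set against that of another.

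Claudins are membrane proteins that polymerise into the strands of the tight junction, where some seal the space between cells and others form pores for ions. Occludin lies in the same strands, and the ZO proteins tie them to the actin cytoskeleton. Connexins assemble into channels that join the cytoplasm of neighbouring cells. In liver, hepatocytes are coupled mainly by Gjb1 and Gjb2 and seal their bile canaliculi with claudins such as Cldn1 and Cldn3, while bile duct cells and vessels use partly different members of both families.

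Members of a gene family can share sequence, so the probes themselves were compared. All were 60 bases long, and the longest run of identical bases shared by any of the 1176 pairs of probes was 13 bases, found for Cldn14 with Cldn9 and for Gjb1 with Ocln. The 4 claudin probes printed here share 1 pattern of 11 bases, given in capitals, in which positions that differ between the 4 printed runs were left free in the search, and are shown because 2 of them (Cldn13 and Cldn4) read genes that changed together. Because the pattern was drawn from these 4 probes, their matches among the 25 claudin probes (16.0%) were fixed in advance. It was in 39 of all 39429 probes with a sequence (0.0989%), and setting these shares side by side is no test. The 4 printed probes map, in build mm9, to chr5:135390710-135390769 (Cldn13, minus strand), chr5:135422135-135422194 (Cldn4, minus strand), chr17:23820168-23820227 (Cldn9, minus strand) and chr4:118929768-118929827 (Cldn19, plus strand).
Cldn13: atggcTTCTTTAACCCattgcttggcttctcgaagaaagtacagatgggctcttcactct
Cldn4: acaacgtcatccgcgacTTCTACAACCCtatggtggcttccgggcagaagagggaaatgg
Cldn9: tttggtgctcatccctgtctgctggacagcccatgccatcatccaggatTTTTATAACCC
Cldn19: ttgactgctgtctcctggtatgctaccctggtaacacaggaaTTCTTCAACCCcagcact

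The array is limited by background rather than by brightness for these genes. No probe of the set was saturated, 39 of the 49 passed the filter (well above background on 4 or more arrays) and were tested, and 29 were well above background on every array of at least 1 group. Gje1, Cldn16 and Cldn24 were above background on no array, Gjb6 and Gjd4 on 1, Gja6, Gjb5, Cldn18 and Cldn26 on 2, and Cldn22 on 3. Cldn26 and Cldn27 are now called Tmem114 and Tmem235. Of the tested genes, Gjd2 and Cldn27 were above background on 4 arrays, all from DEN tumours, Cldn17 and Gjd3 on 5, Cldn11 on 7, Cldn6 on 8, Cldn8 and Cldn13 on 10, and Cldn4 on 12. The background itself lay lower in KO tumours, except in mouse 4. The 3 genes above background on no array, singled out after their values were seen, had mean levels of -8.49 (Gje1), -8.46 (Cldn16) and -8.10 (Cldn24) in KO tumours, against -6.89, -6.85 and -6.43 in KO livers. KO tumour mouse 4, at -6.96, -6.91 and -6.64, lay within the range of the KO livers for each of them. The same genes averaged -8.03, -8.04 and -7.31 in DEN tumours, against -7.11, -7.15 and -6.97 in WT livers.

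Across all genes, 51.2% of the 23537 tested passed an adjusted p of 0.05 between KO tumours and KO livers, and 22 of the 39 junction genes did (56.4%). Of these 13 were higher, where 21.6% of all genes were, and 9 lower, where 29.6% were. DEN tumours against WT livers gave 21.6% of all genes and 8 junction genes (20.5%), 6 higher (10.6% of all genes) and 2 lower (11%). KO tumours against DEN tumours gave 57.4% of all genes and 26 junction genes (66.7%), 8 higher (19.9% of all genes) and 18 lower (37.5%). KO livers against WT livers gave 8.53% of all genes and 6 junction genes (15.4%), 2 higher (1.85% of all genes) and 4 lower (6.68%). The tumour effects of the 2 models differed for 31% of all genes and for 14 junction genes (35.9%), 3 of them with the higher value in the KO model (12.7% of all genes) and 11 with the lower (18.3%). The shares called lie near those of all genes, except for KO against WT livers, where 6 genes gave 15.4% against 8.53%. The higher and lower numbers are counts out of 39 and were not tested against the shares beside them. Read in this way, the counts are not taken as a result about the families as such. The medians of the 39 log2 fold changes in these 5 comparisons, in the same sequence, were -0.03, 0.31, -0.63, -0.45 and -0.16, and those of all genes -0.22, 0.04, -0.33, -0.05 and -0.25. Groups did not overlap for 14 of the 22 genes called between KO tumours and KO livers, 7 of 8 between DEN tumours and WT livers, 12 of 26 between KO and DEN tumours, and 6 of 6 between KO and WT livers. Of all genes called in these comparisons, in the same sequence, groups did not overlap for 80.1%, 82.5%, 54.5% and 96.2%.

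**Figure D1:**
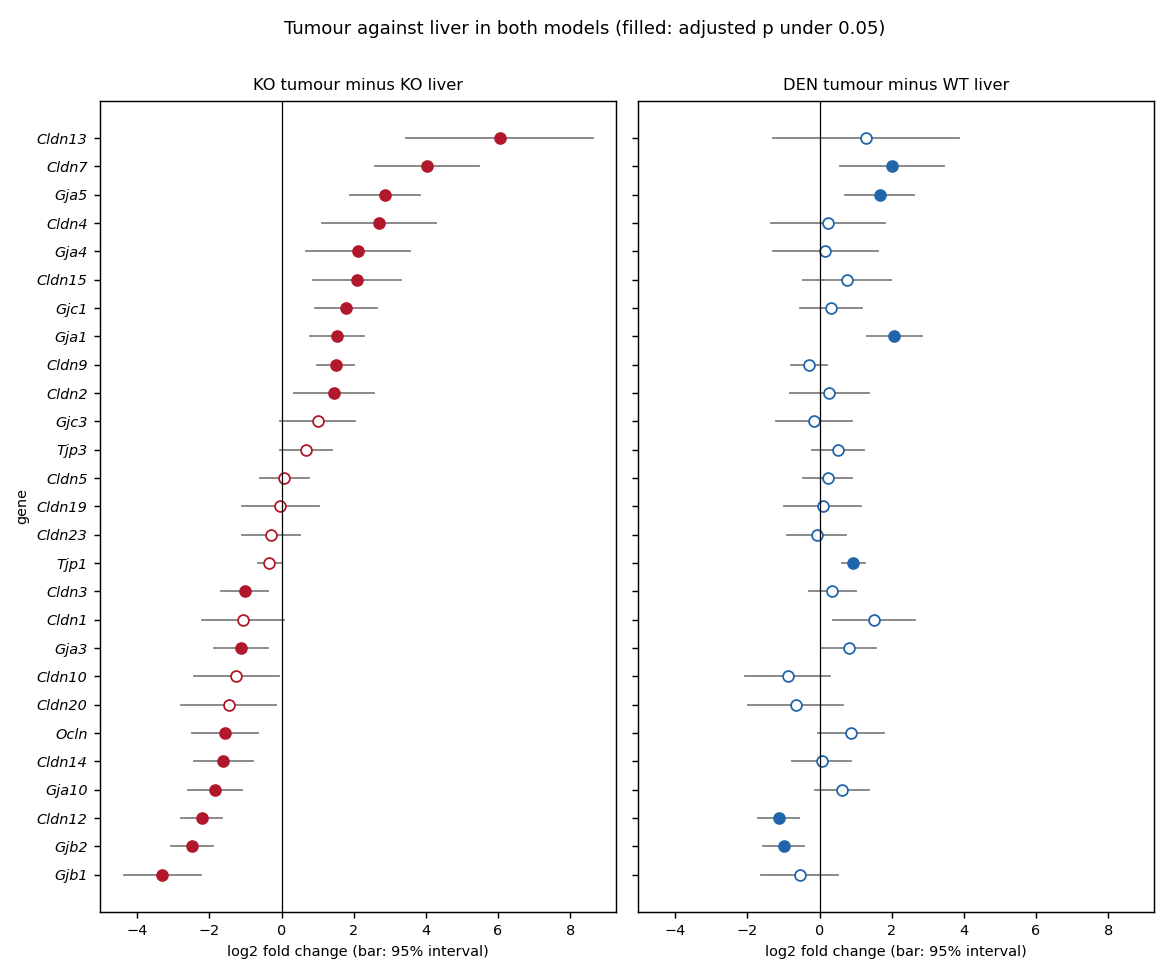
Log2 fold changes (x axis) of 25 junction genes above background on every array of a group, plus Cldn4 and Cldn13 (y axis), in KO tumours minus KO livers (left) and DEN tumours minus WT livers (right), with 95% intervals from the limma fit and filled points for an adjusted p under 0.05. Cldn13 stands at the top (6.04) and Gjb1 at the bottom (-3.31) of the left panel, while the points of the right panel lie between -1.14 (Cldn12) and 2.07 (Gja1).

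Slide and scan day follow the groups closely, which bears on every comparison. WT livers lay alone on their slide and scan day, so WT livers and that slide cannot be told apart; KO livers, DEN tumours and KO tumours each had slides of their own. The 75th percentile of intensity was 2045 to 4258 on the slide of KO tumour mice 4 and 5, and 476 to 1357 on all other arrays. With the slide as a random block, 11 of 39 junction genes were called between KO tumours and KO livers (28.3% of all genes) and 19 between KO and DEN tumours (38.9% of all genes), and limma called 0 in each of the other 3 comparisons. There 3 (DEN tumours against WT livers, 1.8% of all genes called), 5 (KO against WT livers, 0.0467%) and 9 (difference of effects, 3.38%) had an unadjusted p under 0.05, and limma without the block had called 8, 6 and 14. Each junction gene call given below in those 3 comparisons was thus lost with this block. Within scan day 1, which held KO tumour mice 1 to 3, all KO livers and 3 of the 7 DEN tumours, 26 junction genes were called between KO tumours and KO livers (55% of all genes) and 22 between KO and DEN tumours (50.8% of all genes). Trp53 itself averaged -4.71 ± 0.47 in KO tumours (SD, n = 5) and -5.57 ± 0.75 in KO livers (n = 4), against -2.65 ± 0.11 in DEN tumours (n = 5) and -3.57 ± 0.26 in WT livers (n = 4).

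The connexins of hepatocytes fell in KO tumours. Gjb1, the main gap junction protein of hepatocytes, had levels of 2.77, 3.06, 4.31, 6.14 and 4.86 in KO tumour mice 1 to 5, against 7.39, 7.55, 7.65 and 7.57 in KO livers. DEN tumours had 7.59, 6.13, 7.06, 7.05 and 7.01, against 7.77, 7.63, 7.25 and 7.41 in WT livers. Every KO tumour mouse lay below every liver, and mouse 4 lay above the other KO tumours. The log2 fold change was -3.31 ± 0.50 (SE) against KO livers, a 9.92-fold lower level (adjusted p = 4.08e-05), and -2.74 ± 0.47 against DEN tumours (adjusted p = 0.000165). DEN tumours differed from WT livers by -0.55 ± 0.50, with an interval of -1.61 to 0.52, which did not pass the test.

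Gjb2, the second hepatocyte connexin, which is richest in periportal cells, followed the same pattern in KO tumours and also fell in DEN tumours. Its levels were 2.17, 2.72, 2.22, 3.58 and 1.99 in KO tumours, against 5.02, 5.03, 4.88 and 5.13 in KO livers. DEN tumours had 3.64, 3.64, 4.04, 4.18 and 4.46, against 5.11, 5.06, 5.01 and 4.80 in WT livers. The 3 levels stood apart, with KO tumours lowest, DEN tumours between and both liver groups highest, and no mouse of one step reached the next. The log2 fold change was -2.48 ± 0.27 in KO tumours (adjusted p = 1.69e-06) and -1.0 ± 0.27 in DEN tumours (adjusted p = 0.0147). Between the tumour types it was -1.46 ± 0.26 (adjusted p = 0.000182). The DEN tumour call and that between the tumour types were lost with normexp and the 75th percentile. With the slide as a random block the DEN tumour call was lost too (adjusted p = 0.381). Lower transcript levels in a bulk sample can come from fewer cells of a type or from less RNA per cell, and these cannot be told apart here.

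Promoter windows were found in the RefSeq table (GRCm38.p6) for 35 of the 49 genes, 27 of them tested. The 250 bases before the start of Gjb2, which fell in both tumour types, and of Cldn4 and Cldn7, each called higher in KO tumours against KO livers, are printed from 5′ to 3′ on the strand of the gene. Capitals mark matches, on either strand, to 7 short motifs, whose letters follow with their shares. The windows are chr14:57104703-57104952 (Gjb2, minus strand), chr5:134946935-134947184 (Cldn4, minus strand) and chr11:69964529-69964778 (Cldn7, plus strand, 1 of 2 windows listed).
Gjb2: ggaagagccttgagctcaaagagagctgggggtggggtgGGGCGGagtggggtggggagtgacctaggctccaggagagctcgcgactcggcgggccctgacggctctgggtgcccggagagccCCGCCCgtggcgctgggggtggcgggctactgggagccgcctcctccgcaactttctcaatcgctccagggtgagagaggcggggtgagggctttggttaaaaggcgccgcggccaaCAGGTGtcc
Cldn4: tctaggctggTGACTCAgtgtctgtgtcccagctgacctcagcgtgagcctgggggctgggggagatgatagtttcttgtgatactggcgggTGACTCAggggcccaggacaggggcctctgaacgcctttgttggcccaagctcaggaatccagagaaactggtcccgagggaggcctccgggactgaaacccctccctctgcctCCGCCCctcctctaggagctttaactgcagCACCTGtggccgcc
Cldn7: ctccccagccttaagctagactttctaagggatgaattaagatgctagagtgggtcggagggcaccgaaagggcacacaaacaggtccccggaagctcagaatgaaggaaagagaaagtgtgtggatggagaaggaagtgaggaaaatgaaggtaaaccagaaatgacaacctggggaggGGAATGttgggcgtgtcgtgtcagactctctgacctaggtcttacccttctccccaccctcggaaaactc

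The letters TGANTCA, bound by AP-1 factors, occur at 2 places in the Cldn4 window and were present in 3 of the 27 tested genes with a window (11.1%), against 6.87% of 27025 promoters. The E-box letters CACCTG, present in the Cldn4 and Gjb2 windows, were in 18.5% of the tested genes and 17.1% of all promoters. GGGCGG, known from SP1 and KLF factors and present in the same windows, was in 48.1% of the tested genes and 32.9% of all promoters. The TEAD letters GGAATG, which the Cldn7 window holds, were in 11.1% of the tested genes and 12.6% of all promoters. The TATA box letters TATAAA were in 11.1% of the tested genes and 13.0% of all promoters, and none of the printed windows holds them. The letters GTTAAT of HNF1 factors were in 11.1% of the tested genes and 6.52% of all promoters. The GRHL letters AACNGGTT were in 3.70% of the tested genes and 1.71% of all promoters. These matches describe the letters of the windows and are no measurement of binding.

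**Figure D2:**
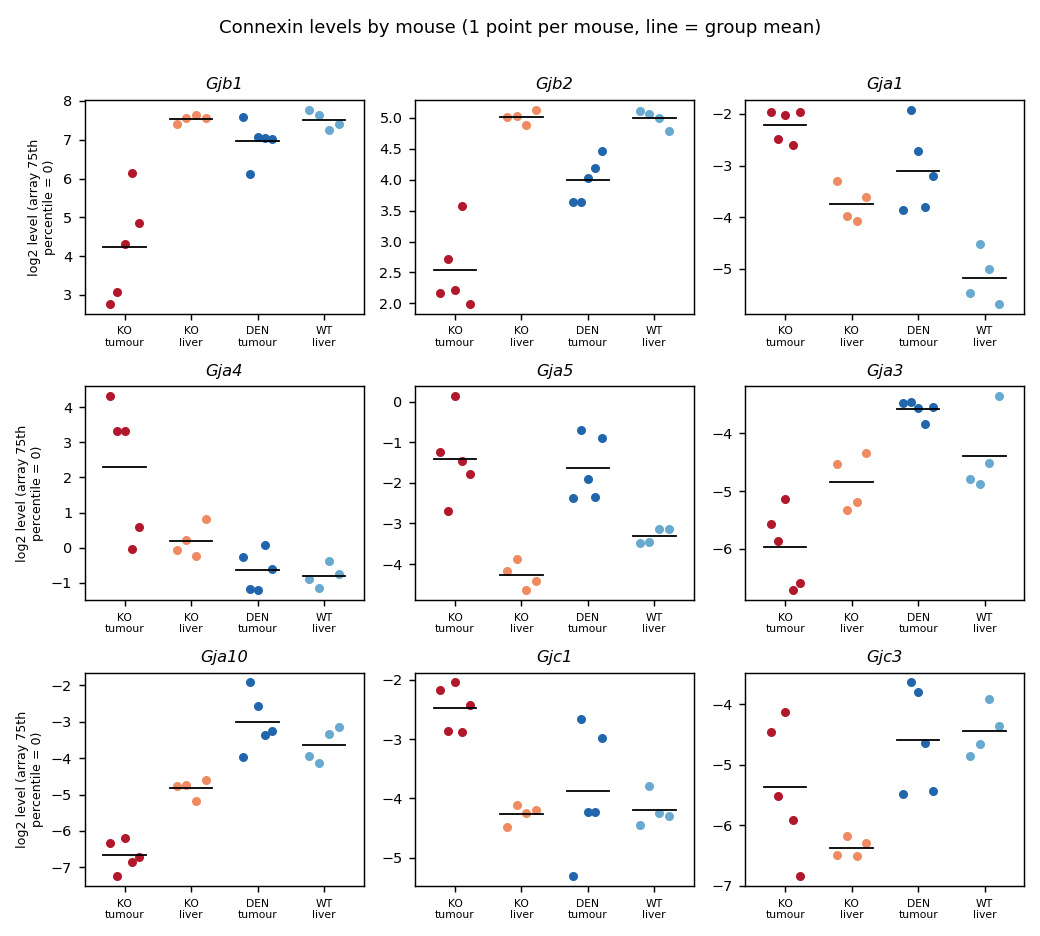
Log2 level (y axis, array 75th percentile set to 0, a scale of its own in each panel) of 9 connexins above background on every array of a group, with 1 point per mouse in KO tumours, KO livers, DEN tumours and WT livers and a line at the group mean. Gjb1 and Gjb2 lie lowest in KO tumours, and Gja4 is high in 3 KO tumour mice.

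Gja4, a connexin of endothelium and of oocytes, was well above background on all arrays and had 4.32, 3.31, 3.32, -0.05 and 0.59 in KO tumours, while KO livers lay at -0.24 to 0.82. DEN tumours lay at -1.21 to 0.08 and WT livers at -1.16 to -0.38. Mice 1 to 3 stood far above all other samples, and mice 4 and 5 lay within the range of the KO livers. The rise against KO livers was 2.11 ± 0.68 (adjusted p = 0.0164) and the one against DEN tumours 2.93 ± 0.65 (adjusted p = 0.00113). Without the slide of mice 4 and 5 these were 3.47 and 4.29, and with the slide as a random block the first no longer passed (adjusted p = 0.114).

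Gja1, the most widespread connexin and in liver a product mainly of non-parenchymal cells and bile ducts, was higher in both tumour types and in KO livers. Its levels were -1.97, -2.49, -2.02, -2.60 and -1.96 in KO tumours, against -3.29, -3.99, -4.08 and -3.60 in KO livers. DEN tumours had -3.85, -1.92, -2.73, -3.80 and -3.21, against -5.48, -4.53, -5.01 and -5.68 in WT livers. WT livers lay lowest of the 4 groups, and no WT liver reached any other group. Gja1 rose by 1.53 ± 0.35 in KO tumours against KO livers (adjusted p = 0.00172), by 2.07 ± 0.35 in DEN tumours against WT livers (adjusted p = 0.000598) and by 1.43 ± 0.37 in KO livers against WT livers (adjusted p = 0.0263). The tumour calls were lost with normexp and the 75th percentile (0.61 in KO tumours and 0.54 in DEN tumours) and with the slide block (adjusted p = 0.0662 and adjusted p = 0.11). Gja1 was above background on 1 of the 4 WT liver arrays, and the KO liver difference turned to -0.26 under the same normexp setting. KO tumours exceeded DEN tumours by 0.89 ± 0.33 (adjusted p = 0.0312), which turned to -0.20 in that setting and was lost in 6 of the fits without 1 mouse. The KO liver call was likewise lost in 6.

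Gja5, a connexin of arterial endothelium and atrial muscle, rose in both tumour types by its brightest probe. That probe gave -1.24, -2.70, 0.14, -1.46 and -1.78 in KO tumours, against -4.17, -3.87, -4.64 and -4.42 in KO livers. It gave -2.36, -0.70, -1.91, -2.36 and -0.89 in DEN tumours, against -3.49, -3.46, -3.13 and -3.14 in WT livers. All tumours lay above all livers of the same genotype, with log2 fold changes of 2.87 ± 0.46 (adjusted p = 6.4e-05) and 1.66 ± 0.46 (adjusted p = 0.0157). The other 2 Gja5 probes moved by -0.24 and -0.94 in KO tumours and by -0.73 and 0.16 in DEN tumours, and neither call held with the mean of all probes. Gjc1, a connexin of vascular smooth muscle, ranged from -2.88 to -2.04 in KO tumours and from -4.49 to -4.11 in KO livers, a rise of 1.79 ± 0.40 (adjusted p = 0.00144). Gjc1 was above background on 1 of the 4 KO liver arrays, and this call was lost with normexp and the 75th percentile (adjusted p = 0.432). DEN tumours ranged from -5.32 to -2.66 and WT livers from -4.45 to -3.78, with no call (0.31 ± 0.40).

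Endothelial and stellate cell markers were set beside these connexins. Of 10 endothelial markers tested, 1 was higher and 5 lower in KO tumours than in KO livers, with a summed level of 17.3 to 24.0 against 37.7 to 53.8 (multiples of the 75th percentile, each marker above background on at least 1 array of both groups). In DEN tumours 2 were higher and 0 lower than in WT livers, with a summed level of 23.9 to 38.3 against 28.7 to 34.8. Of 10 stellate cell and fibroblast markers, 7 were higher and 0 lower, with sums of 107 to 395 in KO tumours against 64.9 to 70.3 in KO livers. Of all genes, 51.2% were called between KO tumours and KO livers and 21.6% between DEN tumours and WT livers. The part of these cells in the connexin results was not tested.

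The connexins of lens, retina and nerve tissue were dim. Gja10, known from retinal neurons, had -6.34, -7.25, -6.20, -6.84 and -6.73 in KO tumours, against -4.77, -4.74, -5.17 and -4.60 in KO livers. DEN tumours had -3.98, -1.92, -2.57, -3.35 and -3.25, against -3.95, -4.15, -3.33 and -3.13 in WT livers. KO tumours lay below every other group, and the probe was above background on 2 of the 6 arrays of KO tumours and 1 of the 4 of KO livers, and on all arrays of the other groups. The differences were -1.85 ± 0.35 against KO livers (adjusted p = 0.00032) and -3.66 ± 0.33 against DEN tumours (adjusted p = 5.81e-07). KO tumours other than mouse 4 also had the lower background given above. Its part in these falls was not tested, and with normexp and the 75th percentile the first difference no longer passed.

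Gja3, a lens connexin, had -5.57, -5.86, -5.13, -6.71 and -6.59 in KO tumours, against -4.54, -5.33, -5.19 and -4.34 in KO livers. DEN tumours had -3.47, -3.47, -3.55, -3.83 and -3.54, against -4.79, -4.88, -4.52 and -3.36 in WT livers. DEN tumours were tightly grouped and lay above every KO tumour. The fall in KO tumours was -2.40 ± 0.33 against DEN tumours (adjusted p = 2.45e-05) and -1.12 ± 0.35 against KO livers (adjusted p = 0.0136), where groups overlapped. The call against KO livers was lost without KO liver mouse 4 and without the bright slide (adjusted p = 0.111). It was also lost within scan day 1 (adjusted p = 0.0847), with the slide block (adjusted p = 0.118) and with normexp and the 75th percentile. Gja3 was above background on 3 of the 6 KO tumour arrays, 1 of the 4 KO liver arrays, 1 of the 4 WT liver arrays and all 7 DEN tumour arrays. Gjc3, of myelinating glia, was below background in all KO livers and at least 1.19-fold lower there than in WT livers (-1.93 ± 0.52, adjusted p = 0.0307). This call ended in 10 of 18 alternatives, among them the fits without any 1 KO liver, and the difference was -0.31 with normexp and quantile scaling. Gjd2, a neuronal connexin named here because of its values, was above background on 4 DEN tumour arrays and at least 1.64-fold lower in KO tumours than in DEN tumours, and its call against KO livers compares groups that were both below background.

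The claudin gene Cldn7, found in simple and ductal epithelia, rose in both tumour types by its brighter probe. It had 1.82, 1.29, 3.44, 2.01 and 1.01 in KO tumours, against -2.10, -2.06, -2.08 and -2.20 in KO livers. DEN tumours had 3.18, -0.43, -1.36, -0.29 and -0.72, against -2.39, -2.05, -1.74 and -1.55 in WT livers. All KO tumours lay above all livers, and DEN mouse 1 lay far above the other DEN tumours. The rise was 4.03 ± 0.68 in KO tumours, or 16.3-fold (adjusted p = 0.000113), and it passed in every alternative that was run, although the mean of both Cldn7 probes gave only 0.94 (adjusted p = 0.0388). In DEN tumours it was 2.01 ± 0.68 (adjusted p = 0.0446), and 1.23 (adjusted p = 0.0405) without mouse 1, and it did not pass without DEN mouse 2 or 4 or without any 1 WT liver. KO tumours exceeded DEN tumours by 1.84 ± 0.64 (adjusted p = 0.022), and by 2.62 without DEN mouse 1. This call was lost without DEN mouse 3 or 5 or KO tumour mouse 3, and within scan day 1. A second Cldn7 probe, above background on 14 arrays, moved the other way, by -2.15 in KO tumours and -3.79 in DEN tumours, and with the mean of both probes the DEN tumour difference was -0.89 and that between the tumour types -0.37.

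Cldn4, a claudin of ductal and intestinal epithelium that binds a bacterial enterotoxin, and Cldn13, a claudin found in rodents, lie 31.4 kb apart on chromosome 5 and are described because of their values, since neither was above background on every array of a group. Cldn13 had 2.72, 1.09, 1.94, -5.46 and -2.39 in KO tumours, against -6.58, -6.19, -6.13 and -6.95 in KO livers. Mice 1 to 3 were high, mouse 5 was intermediate and mouse 4 was near the livers. It rose at least 19.5-fold (6.04 ± 1.22, adjusted p = 0.000565), by 8.38 without the bright slide and by 3.09 with normexp and the 75th percentile. Against DEN tumours, which ranged from -5.72 to -3.48, it rose by 4.28 ± 1.15 (adjusted p = 0.00478), by 6.62 without the bright slide, and by 1.78 with normexp and the 75th percentile, where it did not pass.

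Cldn4 had -2.95, -4.87, -1.55, -6.54 and -3.12 in KO tumours, against -6.78, -6.49, -6.42 and -6.30 in KO livers. Mouse 4 was again at the level of the livers, near the background levels of that mouse given above, and no KO liver array was above background. It rose at least 1.86-fold (2.69 ± 0.74, adjusted p = 0.0062, and adjusted p = 0.0686 with the slide as a random block; 0.35 with normexp and the 75th percentile), and its second probe moved by 2.64. Against DEN tumours the Cldn4 difference of 0.92 ± 0.70 did not pass (adjusted p = 0.274), although it did without the bright slide (1.60, adjusted p = 0.0429) and within scan day 1 (2.33, adjusted p = 0.0243). DEN tumours (-6.41 to -4.03) and WT livers (-5.64 to -4.30) overlapped, with a difference of 0.24 ± 0.74. Cldn3, 41.1 kb from Cldn4, moved the opposite way. It is a sealing claudin of hepatocytes and bile ducts and ranged from 3.80 to 5.34 in KO tumours, against 5.26 to 5.50 in KO livers. DEN tumours ranged from 4.84 to 6.32 and WT livers from 4.97 to 5.36. The fall was -1.02 ± 0.31 against KO livers (adjusted p = 0.0112) and -1.16 ± 0.29 against DEN tumours (adjusted p = 0.00295), and KO tumour mouse 4, at 5.34, lay among the livers. The first call was lost with the slide block (adjusted p = 0.107) and with both normexp settings, where the difference went down in size to -0.18, and the second with normexp and the 75th percentile.

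**Figure D3:**
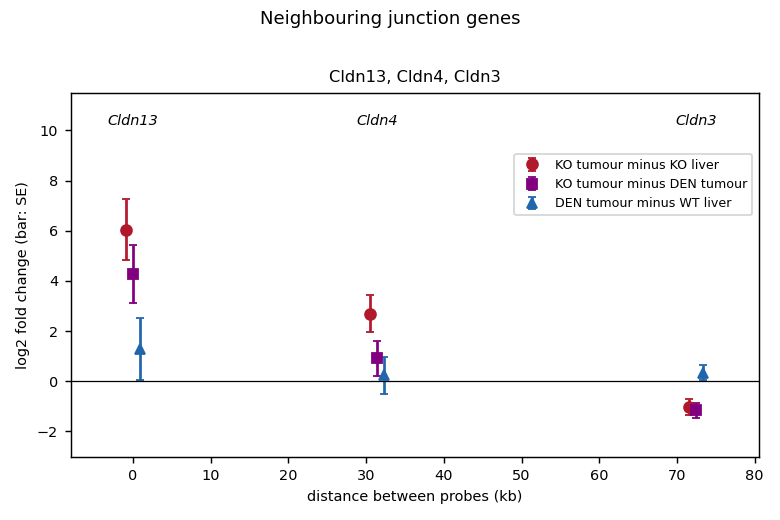
Log2 fold change with its standard error (y axis) against the distance between probes in kb (x axis) for Cldn13, Cldn4 and Cldn3, in KO tumours minus KO livers, KO tumours minus DEN tumours and DEN tumours minus WT livers. Cldn13 and Cldn4 lie above 0 in both KO tumour comparisons and Cldn3 lies below it. The Cldn4 difference against DEN tumours did not pass.

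**Figure D4:**
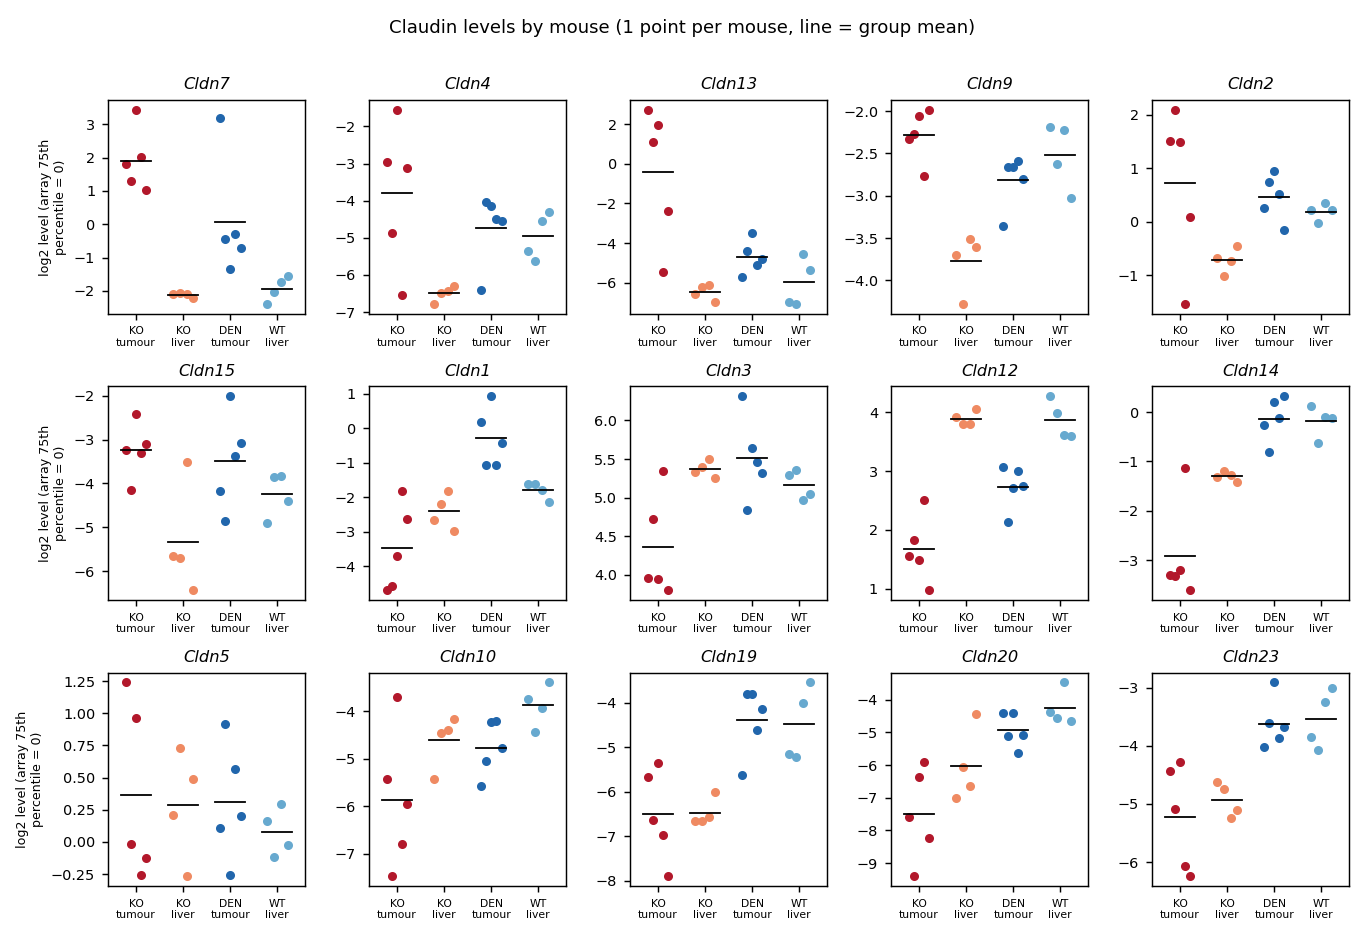
Log2 level (y axis, array 75th percentile set to 0, a scale of its own in each panel) of 13 claudins above background on every array of a group, plus Cldn4 and Cldn13, with 1 point per mouse in KO tumours, KO livers, DEN tumours and WT livers and a line at the group mean. Cldn7 is higher in all KO tumours than in any liver, Cldn13 is spread from -5.46 to 2.72 in KO tumours, and Cldn14 shows 1 KO tumour mouse apart from the other 4.

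Cldn9, known from the inner ear, had a narrow range in every group. It had -2.32, -2.27, -2.05, -2.77 and -1.98 in KO tumours, against -3.69, -4.28, -3.51 and -3.61 in KO livers. DEN tumours had -3.36, -2.66, -2.67, -2.59 and -2.80, against -2.19, -2.62, -2.23 and -3.03 in WT livers. KO livers lay below all KO tumours and WT livers. The difference was 1.49 ± 0.24 for KO tumours against KO livers (adjusted p = 6.01e-05), -1.26 ± 0.25 for KO livers against WT livers (adjusted p = 0.00672) and 0.54 ± 0.22 between the tumour types (adjusted p = 0.0497). With normexp and the 75th percentile the first was 0.66 (adjusted p = 0.191), the second -1.16 (adjusted p = 0.302) and the last -0.31. The second was also lost with the slide block (adjusted p = 0.58), and the last in 8 of the leave-one-mouse-out fits.

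Cldn2, a pore for cations and water, ranged from -1.54 to 2.09 in KO tumours and from -1.02 to -0.45 in KO livers. Mouse 4 had the -1.54, below every KO liver, and the other 4 mice lay above all of them. The rise of 1.45 ± 0.52 (adjusted p = 0.0282) was 2.42 without the bright slide and did not pass without KO tumour mouse 1, 2 or 3 or KO liver mouse 1, 2 or 3. Nor did it pass with the slide as a random block (adjusted p = 0.148), the mean of both probes, normexp and the 75th percentile or only 2 groups in the fit. A second Cldn2 probe, above background on 19 arrays, moved by 0.78. Cldn15, a sodium pore of the intestine, ranged from -4.16 to -2.42 in KO tumours and from -6.43 to -3.51 in KO livers (2.08 ± 0.58, adjusted p = 0.00631), which fell to 0.26 with normexp and the 75th percentile. Cldn5, the claudin of endothelium, was called in no comparison. It ranged from -0.26 to 1.24 in KO tumours, against -0.27 to 0.73 in KO livers, and from -0.25 to 0.92 in DEN tumours, against -0.12 to 0.29 in WT livers, and the interval of the KO tumour difference was -0.61 to 0.75.

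Cldn12, a claudin that lacks the usual ZO-binding end, fell in both tumour types. It had 1.56, 1.84, 1.50, 2.51 and 0.98 in KO tumours, against 3.92, 3.80, 3.79 and 4.05 in KO livers. DEN tumours had 3.07, 2.13, 2.72, 3.0 and 2.74, against 4.27, 3.98, 3.62 and 3.59 in WT livers. All tumours lay below all livers. The fall was -2.22 ± 0.27 in KO tumours (adjusted p = 4.35e-06), -1.14 ± 0.27 in DEN tumours (adjusted p = 0.00624) and -1.05 ± 0.25 between the tumour types (adjusted p = 0.00212). Like Gjb2, Cldn12 passed in both tumour types, and the difference of the effects was -1.08 ± 0.38 (adjusted p = 0.04). That difference did not pass in 19 of 28 alternatives. Among them were both normexp settings, the slide block (adjusted p = 0.266) and most fits without 1 mouse. The DEN tumour call was lost with normexp and the 75th percentile and with the slide block (adjusted p = 0.244).

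Cldn14, a sealing claudin of inner ear, kidney and liver, had -3.29, -3.31, -3.20, -1.14 and -3.60 in KO tumours, against -1.31, -1.20, -1.27 and -1.41 in KO livers. DEN tumours had -0.25, -0.81, 0.20, -0.12 and 0.32, against 0.12, -0.63, -0.11 and -0.12 in WT livers. In KO tumours 4 mice lay far below both liver groups, and mouse 4 lay above the KO livers and below the WT livers. The fall was -1.61 ± 0.39 against KO livers (adjusted p = 0.00242, and adjusted p = 0.0519 with the slide as a random block) and -2.78 ± 0.37 against DEN tumours (adjusted p = 1.65e-05). DEN tumours and WT livers differed by 0.05 ± 0.39, with an interval of -0.77 to 0.88.

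Cldn1, a sealing claudin of bile canaliculi and a co-receptor for hepatitis C virus in humans, moved apart in the 2 tumour types. It had -4.69, -4.57, -3.71, -1.81 and -2.61 in KO tumours, against -2.65, -2.19, -1.82 and -2.98 in KO livers. DEN tumours had 0.19, -1.07, 0.93, -1.06 and -0.43, against -1.61, -1.62, -1.79 and -2.14 in WT livers. Every DEN tumour lay above every other sample, whereas KO tumours overlapped KO livers. Neither tumour differed from its liver at the threshold (-1.07 ± 0.54, adjusted p = 0.106, for KO tumours, and 1.50 ± 0.54, adjusted p = 0.0561, for DEN tumours). The KO tumour difference was -1.91 and passed with scan day as a fixed block (adjusted p = 0.00499), within scan day 1 and without the bright slide, and the DEN tumour difference passed, among other settings, with only 2 groups in the fit (adjusted p = 0.0283), with normexp and quantile scaling and without DEN mouse 2 or 4. The tumour types differed by -3.19 ± 0.51 (adjusted p = 7.68e-05) and the effects by -2.57 ± 0.76 (adjusted p = 0.0176).

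Cldn20, Cldn23 and Cldn19 were lower in KO than in DEN tumours. Cldn20 differed by -2.58 ± 0.59 (adjusted p = 0.00144), Cldn23, a claudin of the intestinal surface, by -1.60 ± 0.36 (adjusted p = 0.00142), and Cldn19, of the kidney, by -2.11 ± 0.48 (adjusted p = 0.00135). Each was above background on all 7 DEN tumour arrays and on 1, 3 and 3 of the 6 KO tumour arrays. Within scan day 1 the Cldn23 and Cldn19 differences did not pass. KO livers lay below WT livers for Cldn19 (at least 1.17-fold, -1.99 ± 0.53, adjusted p = 0.0292) and Cldn23 (at least 2.13-fold, -1.39 ± 0.41, adjusted p = 0.0441), with no KO liver array above background for either. The Cldn19 call ended in 9 and the Cldn23 call in 12 of 18 alternatives, most of them fits without 1 mouse, and with normexp and quantile scaling the differences were -0.32 and -0.33. Cldn10, an ion pore of kidney tubules, ranged from -7.47 to -3.71 in KO tumours and -5.44 to -4.17 in KO livers, and from -5.57 to -4.20 in DEN tumours and -4.45 to -3.40 in WT livers, with no call in any comparison of all mice. Among other settings, it passed lower in KO than in DEN tumours with normexp and the 75th percentile (-2.07) and, against both KO livers (-1.80) and DEN tumours (-1.64), without KO tumour mouse 3.

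Occludin fell in KO tumours and Tjp1, a ZO scaffold gene, rose in DEN tumours. Ocln ranged from -2.38 to -1.48 in KO tumours, against -0.68 to 0.03 in KO livers. DEN tumours ranged from -0.49 to 1.68 and WT livers from -1.62 to 0.07. All KO tumours lay below all KO livers and all DEN tumours. The fall was -1.56 ± 0.43 against KO livers (adjusted p = 0.00601, and adjusted p = 0.151 with the slide as a random block) and -1.98 ± 0.41 against DEN tumours (adjusted p = 0.000637). A second Ocln probe moved by -1.63 and -1.38.

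Tjp1 had 1.86, 1.89, 1.72, 2.06 and 1.57 in KO tumours, against 2.08, 2.15, 2.28 and 2.15 in KO livers. DEN tumours had 2.46, 2.27, 2.59, 2.33 and 2.55, against 1.57, 1.78, 1.32 and 1.34 in WT livers. WT livers and DEN tumours did not overlap. The rise in DEN tumours was 0.94 ± 0.15 (adjusted p = 0.000408, and adjusted p = 0.0779 with the slide as a random block). KO livers also exceeded WT livers (0.66 ± 0.16, adjusted p = 0.0192). This call was lost without KO liver mouse 2 or 3 or WT liver mouse 3 or 4. It was also lost with normexp and the 75th percentile and with the slide block. KO tumours were not called against KO livers (-0.34 ± 0.15, adjusted p = 0.0693) and fell against DEN tumours (-0.62 ± 0.14, adjusted p = 0.00168). Tjp3, the ZO gene of epithelia, ranged from 2.58 to 4.06 in KO tumours, against 2.38 to 3.30 in KO livers, and from 2.43 to 3.87 in DEN tumours, against 2.45 to 2.60 in WT livers, with no call in the model of all mice. The KO tumour difference of 0.68 was 1.03 and passed with scan day as a fixed block (adjusted p = 0.0447), within scan day 1 and without the bright slide, and was 1.30 with normexp and quantile scaling (adjusted p = 0.00181). KO tumours also passed higher than DEN tumours without the bright slide (0.84, adjusted p = 0.0381).

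**Figure D5:**
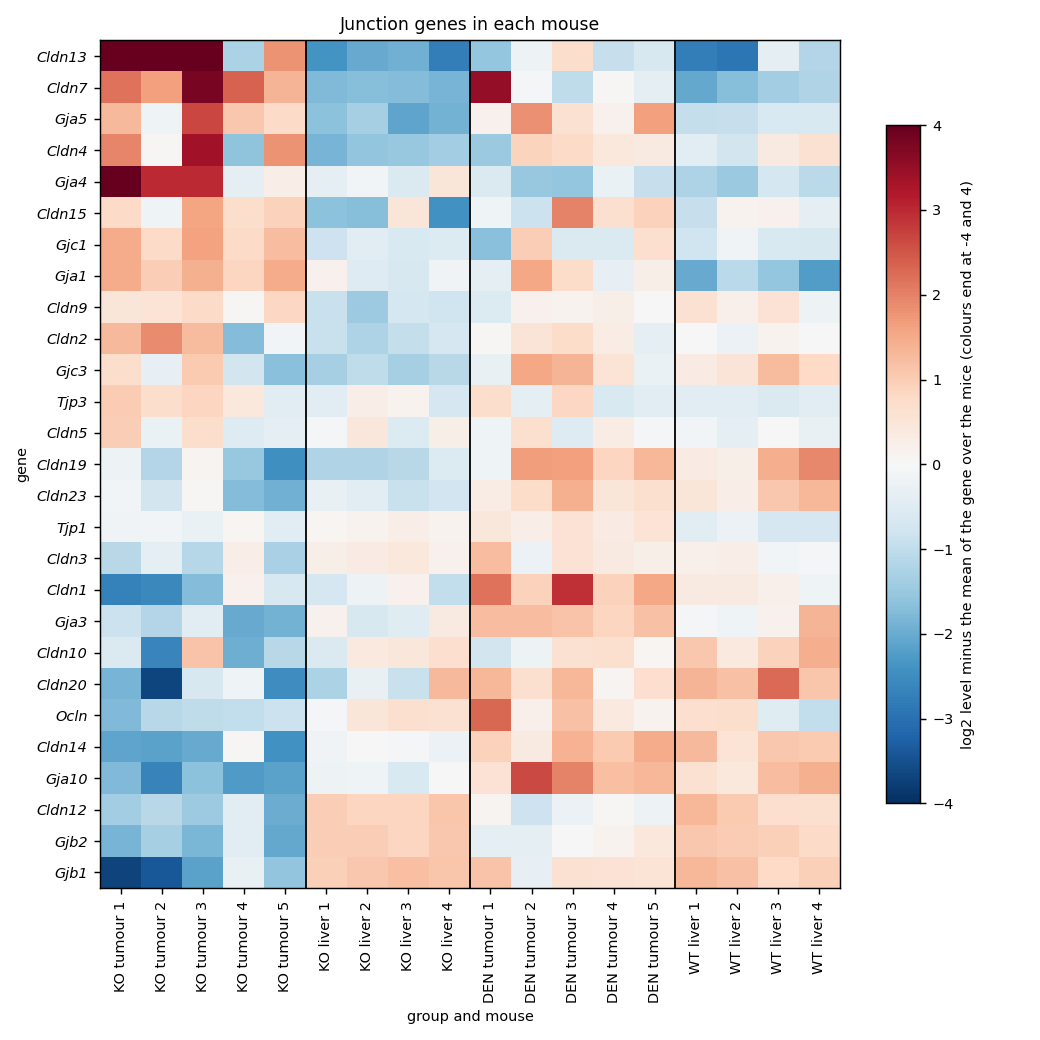
Log2 level of each gene minus its mean over the 18 mice (colour, ending at -4 and 4) for 27 junction genes (rows, sorted by the KO tumour minus KO liver difference) in each mouse (columns, KO tumours, KO livers, DEN tumours and WT livers, left to right). KO tumour mouse 4 is paler than the other KO tumours for Cldn14 (-1.14 against -3.60 to -3.20) and Gjb1 (6.14 against 2.77 to 4.86), and DEN mouse 1 stands out for Cldn7 (3.18).

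KO tumour mouse 4, which had the highest Gjb1, Gjb2 and Cldn14 of its group, also stood apart in marker genes. Alb, the albumin gene, stood at 5.04, 7.03, 7.13, 8.46 and 7.43 in KO tumours, against 9.97, 9.88, 10.17 and 9.81 in KO livers. Krt19, a bile duct keratin, had 3.32, 2.72, 3.41, -3.98 and 1.59 in KO tumours, against -3.16, -3.30, -2.90 and -3.54 in KO livers, with mouse 4 below the livers and the other 4 far above them. Epcam, a partner of Cldn7 on ductal cells, had 3.09, 2.64, 2.90, 0.24 and 1.42 in KO tumours, against -4.72, -3.90, -3.99 and -4.88 in KO livers.

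Lists of hepatocyte, bile duct, and intestinal and gastric markers were also compared between the groups. The shares of all genes called were 51.2% for KO tumours against KO livers and 21.6% for DEN tumours against WT livers. All 10 hepatocyte markers were lower in KO tumours than in KO livers, with a summed level of 62.8 to 545 against 2450 to 2840. Of 10 bile duct markers 8 were higher and 0 lower, with sums of 52.9 to 273 in KO tumours against 3.06 to 4.42 in KO livers, where Krt7 and Muc1 were above background on no array. Of 7 intestinal and gastric markers tested 4 were higher and 1 lower (sums of 24.1 to 120 against 1.90 to 2.44, with Cdx2, Cdh17, Krt20 and Tff2 above background in no KO liver). In DEN tumours, 0 hepatocyte markers were higher and 3 lower than in WT livers (1160 to 1730 against 2040 to 2610), and 4 bile duct markers were higher and 1 lower (26.4 to 83.0 against 2.10 to 3.60). A sum weighs bright markers most, and the median log2 fold change of the 10 bile duct markers was 0.56 in DEN tumours and 4.66 in KO tumours. Krt19 ranged from -4.82 to -1.70 in DEN tumours, against -3.89 to -2.99 in WT livers. Epcam ranged from -7.82 to -2.78, against -5.41 to -4.29, so both overlapped. The summed levels differed between the groups, and the part of cell composition in the junction results was not tested.

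Other genes of the junctions, from lists chosen for this tissue, moved in both directions. Of 32 tight junction partners, 8 were higher and 7 lower in KO tumours than in KO livers, with a median of 0.03. Of all genes, 21.6% were called higher and 29.6% lower in that comparison. Epcam rose by 6.43 ± 0.78 and Arhgef2, a guanine nucleotide exchange factor held at tight junctions, by 2.98 ± 0.26, while the polarity genes Pard3 (-1.50 ± 0.23) and Crb3 (-1.69 ± 0.33) and the scaffold gene Magi3 (-1.28 ± 0.22) fell. In DEN tumours 7 were higher and 2 lower, among them the junction adhesion gene F11r (1.29 ± 0.23) and the polarity kinase gene Prkcz (-1.94 ± 0.37). Between the tumour types 9 were higher and 10 lower in KO tumours, and between the livers 0 were higher and 1 lower in KO livers. Of all genes, 21.6% were called between DEN tumours and WT livers, 57.4% between the tumour types and 8.53% between the livers.

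Of 17 adherens junction and desmosome genes, 6 were higher and 5 lower in KO tumours than in KO livers, where 51.2% of all genes were called. Cdh1, the cadherin of epithelia, rose by 4.86 ± 0.37 and Cdh2, the second cadherin of hepatocytes, fell (-1.91 ± 0.21). Cdh1 was also lower in KO livers than in WT livers (-3.20 ± 0.39, adjusted p = 0.000161), and in DEN tumours it rose by 2.24 ± 0.37. Pannexins form membrane channels related to those of connexins, and of the 2 tested 1 was higher and 1 lower in KO tumours than in KO livers. Panx1 rose by 4.17 ± 0.35 and Panx2 fell (-1.24 ± 0.49, adjusted p = 0.045), and in DEN tumours Panx1 rose by 3.27 ± 0.35 and Panx2 was not called. Of 16 regulators of epithelial junctions, 4 were higher and 5 lower in KO tumours, with Snai1, a repressor of Cdh1, up by 2.65 ± 0.37 and the epithelial splicing factor Esrp2 (-2.76 ± 0.27) and the hepatocyte factor Hnf4a (-2.63 ± 0.36) down.

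Between KO and DEN tumours, the split of calls depended on how the arrays were scaled. The 39 junction genes gave 8 higher and 18 lower with the 75th percentile, 10 and 15 with normexp and quantile scaling, and 3 and 18 with normexp and the 75th percentile. The median of all genes was -0.33, -0.04 and -0.78 in these settings, and each difference is relative to it. Of all genes called, 65.4%, 52.9% and 84.5% were lower. For KO livers against WT livers the share lower was 78.3%, 65.5% and 55.6%, and for DEN tumours against WT livers 51.0%, 52.0% and 37.0%. For the difference of effects it was 59.1%, 48.4% and 67.2%. Of the 23 calls between KO and DEN tumours that are given by gene, those that held in every alternative that tested them were Cldn1, Cldn14, Cldn20, Gja10, Gja3, Gja4, Gjb1, Gjd2 and Ocln (9 genes). Gjd2 passed the filter only through 4 DEN tumour arrays and was above background on no KO tumour array, so its place among them is no support for a difference. The sizes of the 9 calls moved, and the log2 fold change over the alternatives ran from -2.98 to -0.35 for Cldn20, -3.09 to -0.22 for Gjd2, -2.61 to -0.49 for Gja3 and -3.90 to -1.05 for Gja10. Of the 19 between KO tumours and KO livers they were Cldn7, Cldn12, Cldn13, Gjb1 and Gjb2 (5 genes), with ranges of 0.94 to 4.30 for Cldn7 and 3.09 to 8.38 for Cldn13.

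The tumour effect differed between the models for 14 junction genes. It was lower in the KO model for Gjb1 (-2.76 ± 0.71, adjusted p = 0.00834), Gjb2 (-1.48 ± 0.38, adjusted p = 0.00866), Ocln (-2.44 ± 0.61, adjusted p = 0.00692) and Tjp1 (-1.28 ± 0.22, adjusted p = 0.000543). It was higher for Cldn9 (1.79 ± 0.33, adjusted p = 0.00111) and Cldn13 (4.76 ± 1.73, adjusted p = 0.0461), where the Cldn13 call ended in 17 of 27 alternatives, among them most fits without 1 mouse (adjusted p = 0.0754 without KO tumour mouse 1). For Cldn7 the difference of effects, 2.02 ± 0.96, did not pass (adjusted p = 0.121; 2.79 and adjusted p = 0.00216 without DEN mouse 1), nor did that of Gja1 (-0.54 ± 0.50).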

How the data were processed

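RNA of 21 liver and liver tumour samples was labelled with Cy3 and read on one-colour Agilent arrays of 44397 spots. Per the submitters' processing notes the scans were read with Agilent Feature Extraction version 10.7.3.1, and per the file headers the deposited intensity per spot is background-corrected and unscaled. The authors' deposited table is in log2 units and matched the same intensities shifted by the 75th percentile and centred on each probe's median (lowest correlation with the own array 0.9997).

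Outlier spots were removed, 969 probe values were missing, and the 75th percentile of log2 intensity was subtracted on each array. Coordinates are the mm9 positions in the files. The number before T in a title was read as the mouse, giving 18 mice. One limma 3.58.1 model in R 4.3.3 with 4 group means was fitted to 23537 genes above background on at least 4 arrays (two-sided moderated tests, prior degrees of freedom 2.62, Benjamini-Hochberg within a comparison, threshold 0.05). The script was tested on simulated data. An "at least" fold sets the brighter group's mean against the lowest signal well above background on the dimmer group's arrays, or the probe's own signal where that is higher. The number of arrays limits the precision, and p-values measure the spread between mice. For each gene this spread was pooled over the 4 groups, so intervals between other groups also carry the spread of KO tumours. For Gjb1 the SD was 1.38 in KO tumours and 0.11 in KO livers. Without the slide block, p-values do not cover the spread between slides.

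Junction genes above background on every array of a group were named with values, those with the 14 smallest adjusted p with all mice; from each list at most 3 risen and 3 fallen genes were named. Counts cover the whole set, and the values of some of its genes are not reported here. The genes and lists were chosen with earlier results of these data known. The comparisons share groups of mice and are not independent.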

Additional observations from a re-analysis of the deposited data

Results flagged for a closer look

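In 6 of the 76 combinations of gene and group tested, 1 mouse lay far from the others, and chance alone flags about 1 in 20. Cldn14 stood at -1.14 in KO tumour mouse 4, with the other KO tumours from -3.60 to -3.20. Ocln stood at -2.38 in KO tumour mouse 1 (others -1.74 to -1.48). In DEN mouse 1, Cldn7 stood at 3.18 (others -1.36 to -0.29) and Cldn9 at -3.36 (others -2.80 to -2.59). Gja3 stood at -3.83 in DEN mouse 4 (others -3.55 to -3.47), and Tjp3 at 2.45 in WT liver mouse 3 (others 2.58 to 2.60).

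For 14 genes the tumour effect differed between the models in limma's test of the difference itself, and 13 of them are given here. The effect in the KO model minus that in the DEN model was 4.76 for Cldn13 and 1.79 for Cldn9. It was -2.76 for Gjb1, -2.57 for Cldn1, -2.48 for Gja10, -2.44 for Ocln, -2.34 for Gjd2, -1.94 for Gja3, -1.67 for Cldn14, -1.48 for Gjb2, -1.37 for Cldn3, -1.28 for Tjp1 and -1.08 for Cldn12. Gjd2 passed the filter only through DEN tumour arrays and was above background on no array of the other groups. None of the 14 passed with the slide as a random block.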

How the results depend on the processing

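No paired analysis was possible because no label ties a tumour to a liver of the same mouse or batch. All calls were the same with the authors' deposited values. These are the same intensities with the same scaling, centred on each probe, so the match was fixed in advance and is no separate check. Of 1859 values under the alternatives other than leaving out a mouse, the deposited values included, 1676 kept direction and side of the threshold. Of the rest, 122 lost the call, 50 gained one and 11 reversed. Leaving out each mouse, 1707 of 1836 kept both and 0 reversed. Counts (higher, lower) were as follows; the main ones were 22 (13, 9) for KO tumour against KO liver, 8 (6, 2) for DEN tumour against WT liver, 26 (8, 18) for KO against DEN tumour, 6 (2, 4) for KO against WT liver and 14 (3, 11) for the difference of effects. With normexp and the 75th percentile they were 12 (7, 5), 1 (1, 0), 21 (3, 18), 0 (0, 0, with 4 at an unadjusted p under 0.05) and 4 (1, 3). Of all genes, 24.6%, 2.84%, 51.8%, 0.603% and 7.83% were called in that setting. With the slide as a random block they were 11 (7, 4), 0 (0, 0), 19 (3, 16), 0 (0, 0) and 0 (0, 0), and of all genes 28.3%, 1.8%, 38.9%, 0.0467% and 3.38% were called. KO against WT liver gave 3 (2, 1) with normexp and quantile scaling, 3 (2, 1) with the mouse as a random block and 12 (3, 9) with 2 groups in the fit. Of all genes, 7.44%, 4.9% and 19.2% were called for KO against WT liver in these settings. With 2 groups in the fit, KO against DEN tumour gave 5 higher (49.1% of all genes called). Without the bright slide the difference of effects gave 8 higher (39% of all genes called). Leaving out each mouse gave 21 to 25 (12 to 15, 8 to 12), 6 to 10 (4 to 8, 2 to 2), 22 to 29 (5 to 11, 17 to 19), 1 to 7 (0 to 2, 1 to 5) and 11 to 19 (2 to 8, 9 to 12). The shares of all genes called were 45.3% to 54.2%, 15.4% to 20.9%, 52.8% to 59.7%, 2.79% to 8.88% and 25.4% to 36.4%.

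Values that reversed were, with normexp and quantile scaling, Gjd2 in KO tumour against KO liver (0.0356) and Cldn17 in KO against DEN tumour (0.0781). With normexp and the 75th percentile they were Cldn9 (-0.31), Gja1 (-0.20) and Gjc1 (-0.39) in KO against DEN tumour and Gja1 in KO against WT liver (-0.26). With the mean of all probes they were Cldn7 in DEN tumour against WT liver (-0.89), and Cldn7 (-0.37) and Gja5 (-0.70) in KO against DEN tumour. With scan day as a fixed block or day 1 alone it was Gjc3 in KO against DEN tumour (1.20). The cause was not tested, except that the mean of all probes brings in probes that move the other way. Signal near background limits Cldn4, Cldn13, Gja10, Gja3 and the dimmer genes. No scan day held both DEN tumours and WT livers or both KO and WT livers, so values within a day were not run there.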
